A study of Mus musculus with 3 samples.

Results

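The 7 genes described here belong to the immunity-related GTPases (IRGs) of the mouse. They are Tgtp1, Tgtp2, Igtp, Irgm1, Irgm2, Iigp1 and Gm4841, which were taken by symbol from the 23361 genes of the mRNA tables. The list was chosen on the FPKM values of these same libraries, so the differences between libraries below are a description and carry no test. All 7 were among the 10792 genes that reached an FPKM of 1 in 1 library or more, called the genes tested here. FPKM is the number of fragments per kilobase of transcript, scaled to the mapped fragments of the library, a level per length, so that genes can be compared within a library.

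IRGs are GTP-binding proteins that cells make in response to interferon. Interferon gamma acts through the receptor chains Ifngr1 and Ifngr2 and the kinases Jak1 and Jak2, and genes that respond to it often carry a DNA element named GAS (gamma-activated site). Irf1 binds another element, the ISRE (interferon-stimulated response element). The effector IRGs coat and disrupt the vacuoles of intracellular parasites such as Toxoplasma, and the regulatory IRGs sit on membranes of the cell itself and hold the effectors inactive there.

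Of the members, Irgm1, Irgm2 and Igtp (also named Irgm3) are regulators. Tgtp1 and Tgtp2 (Irgb6) and Iigp1 (Irga6) are effectors. For Gm4841, RefSeq gives the synonym Ifgga3, which places it in the same group as Iigp1 (Ifgga1), and no role is given here. In mm10, Irgm1 lies at chr11:48865249-48871346, Tgtp1 at chr11:48985329-48992246, Igtp at chr11:58199556-58207592 and Irgm2 at chr11:58214977-58222783. The tables list Tgtp2 at chr11:49037660-49135387, a locus that 4 genes of the tables carry, and RefSeq places the gene itself at chr11:49057196-49064212. Gm4841 lies at chr18:60268301-60273267 and Iigp1 at chr18:60376029-60392629. The 7 genes therefore stand in tandem arrays, 5 on chromosome 11 and 2 on chromosome 18.

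The study profiled liver of C57BL/6J mice of 8 to 10 weeks, all labelled male, with no allele named beside the strain. The Sham library came from laparotomy with a wait of 90 min. The WI library came after 90 min of warm ischemia with the portal triad of the left and median lobes (70% of the liver) clamped, and the IR library after 90 min of ischemia and 120 min of reperfusion. All mice were fasted for 12 h and were operated on under chloral hydrate. The study had 6 mice a group, and the sources used here do not say if their RNA was pooled. With 1 library a group, no comparison has a replicate check. The bounds given below are the 95% bounds that Cuffdiff wrote for a library, and they do not cover the spread between mice. IR differs from Sham in the time since surgery as well as in treatment, since the sham liver was taken after 90 min.

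The libraries do not all match their label. Xist, the RNA that coats the inactive X chromosome of female cells, had an FPKM of 18.9 in Sham, 20.2 in WI and 1.29 in IR. The Y-linked gene Ddx3y had 0, 0.01 and 8.58, and Eif2s3y 0, 0 and 13.2. The Sham and WI libraries thus go against the label male. The IR library held Y-linked RNA, beside a low level of Xist with bounds of 0.639 to 1.94 that was not looked into. In every comparison with IR, the difference in these genes and reperfusion cannot be told apart. Sham and WI were alike in these genes. The hepatocyte genes Ttr and Apoa1 were at FPKM from 4239 to 8799 in every library, and Alb was listed at 0 in all 3 because Cuffdiff left its locus unprocessed. The sums of 15 NK and T cell markers were 14.9, 14.3 and 6.63 FPKM in Sham, WI and IR, those of 9 Kupffer cell and macrophage markers 513, 258 and 168, and those of 7 neutrophil markers 25.4, 19.3 and 460. Of the Kupffer cell and macrophage markers, 7 of 9 were at least 2-fold lower in IR than in Sham, and of the neutrophil markers 5 of 5 tested were higher, while Mpo was at 0 in IR. In these bulk samples, fewer cells of a type and less RNA per cell cannot be told apart.

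The sequence before the start of each gene is shown first because it holds a feature that the choice of the members did not use. RefSeq promoter windows (GRCm38.p6) were given for 5 members. In each stretch below, printed 5′ to 3′ on the gene's own strand, capitals mark matches to GAS (TTCNNNGAA) or to the ISRE core (GAAANNGAAA), both searched on both strands.
Tgtp1: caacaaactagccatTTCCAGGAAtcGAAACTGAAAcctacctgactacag
Tgtp2: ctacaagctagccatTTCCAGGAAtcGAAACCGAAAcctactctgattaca
Igtp: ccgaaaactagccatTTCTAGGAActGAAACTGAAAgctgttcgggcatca
Irgm2: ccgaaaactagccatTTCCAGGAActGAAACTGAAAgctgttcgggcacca
Irgm1: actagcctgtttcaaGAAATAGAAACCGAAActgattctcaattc
The stretches lie at chr11:48992299-48992349 on the minus strand for Tgtp1, chr11:49064258-49064308 on the minus strand for Tgtp2, chr11:58199496-58199546 on the plus strand for Igtp, chr11:58214887-58214937 on the plus strand for Irgm2 and chr11:48871421-48871465 on the minus strand for Irgm1. Tgtp1, Tgtp2, Igtp and Irgm2 each held a GAS match followed by an ISRE match that started 11 bases after the start of the GAS match. The GAS match began 88 bases before the start of Tgtp1, 81 before Tgtp2, 75 before Irgm2 and 45 before Igtp. Irgm1 differed, with 2 ISRE matches that overlap by the letters GAAA and no GAS match in its window. Within the 250 bases before the start, 7.02% of 32851 promoter windows held GAS, 2.98% the ISRE core and 0.332% both. The order and spacing seen in the 4 members occurred in 5 windows, theirs and that of the IRG gene Gm12185. Over the 250 bases, Igtp and Irgm2 were 68.88% identical and Tgtp1 and Tgtp2 62.63%. The other pairs of these 4 members ranged from 46.23% to 54.8%. All 5 genes are of 1 family, so their windows need not be independent occurrences. A match is a stretch of letters and not a measured binding site, and the spacing was searched for after it had been seen in the members.

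**Figure D1:**
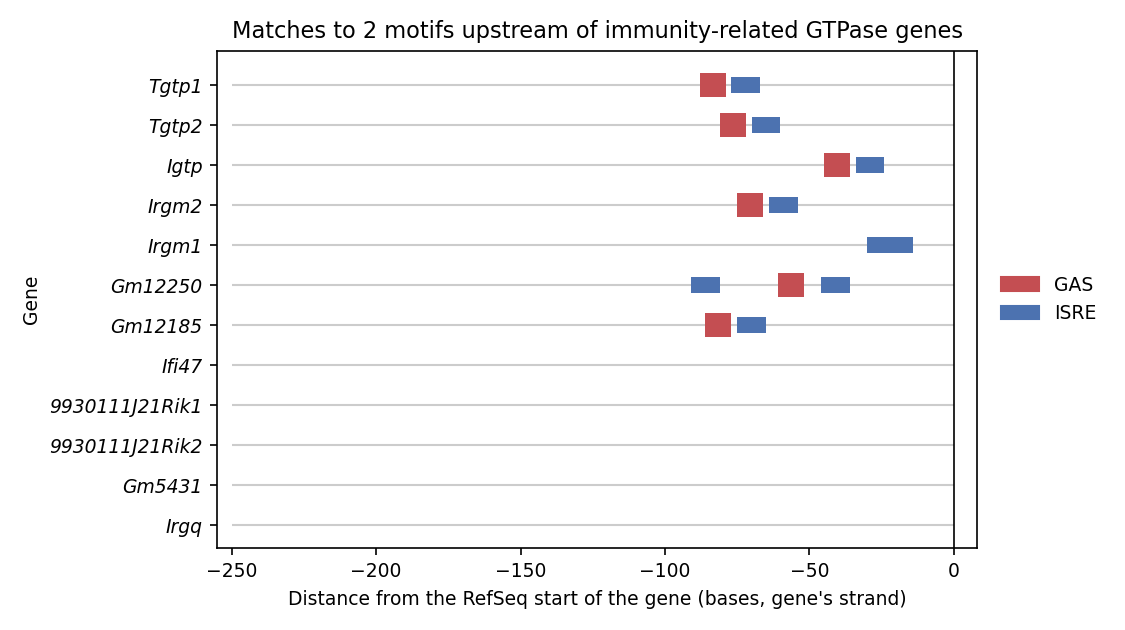
Positions of GAS (red) and ISRE core (blue) matches in the 250 bases before the RefSeq start of 12 IRG genes with a promoter window; the x axis is the distance from the start in bases. Tgtp1, Tgtp2, Igtp, Irgm2 and Gm12185 share the GAS match with an ISRE match 11 bases on, Irgm1 holds overlapping ISRE matches alone, and 5 genes hold neither.

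All 7 members were higher after ischemia than in Sham, and 6 of the 7 were lower again after reperfusion. Their FPKM summed to 165 in Sham, 535 in WI and 223 in IR. Iigp1 supplied 57.7%, 59.5% and 59.1% of these sums, so the total largely follows that gene. Irgm1 was the exception in the reperfused liver, where its FPKM was 1.04 times that in WI, although it was below WI when the libraries were rescaled to the same FPKM sum.

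**Figure D2:**
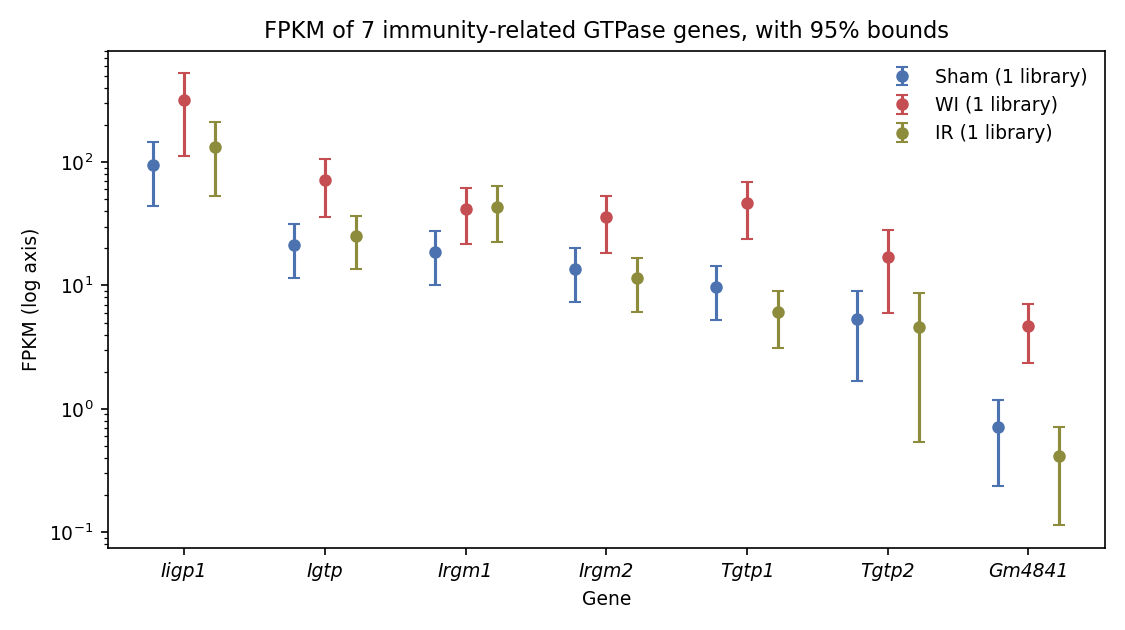
FPKM of each member (y axis, log scale) in the Sham, WI and IR libraries, with the 95% bounds of Cuffdiff as bars; each point is 1 library. WI is the highest point of 6 genes, from 4.68 (Gm4841) to 318 (Iigp1), and for Irgm1 the points of WI and IR lie at 41.7 and 43.4.

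Among the effectors, Iigp1 had the highest level of all members. Its FPKM was 95.3 in Sham (bounds 43.9 to 147), 318 in WI (112 to 525) and 132 in IR (53.6 to 210). WI was 3.34 times Sham (interval 1.43 to 7.77, from the bounds of both libraries), and IR was lower than WI by 2.42 times (1.003 to 5.82). The bounds of the 3 libraries overlapped, since they are wide for this gene.

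Tgtp1 had the largest difference of the members between WI and either other library on the log2(FPKM + 1) scale, 2.14 against Sham and -2.75 for IR against WI. Its FPKM was 9.79 in Sham (5.22 to 14.4), 46.7 in WI (24.0 to 69.3) and 6.08 in IR (3.13 to 9.02). The bounds of WI overlapped neither those of Sham nor those of IR. WI was 4.77 times Sham (2.43 to 9.35), and IR was lower than WI by 7.68 times (3.86 to 15.3).

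Tgtp2, the near-identical neighbour, showed the same order at a lower level. Its FPKM was 5.37 in Sham (1.69 to 9.05), 16.9 in WI (5.94 to 27.9) and 4.64 in IR (0.537 to 8.74), with overlapping bounds throughout. WI was 3.15 times Sham (1.23 to 8.11), and IR was lower than WI by 3.65 times (1.22 to 10.9).

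These 2 genes cannot be read apart with confidence. In the transcripts of the NCBIM37 annotation their coding sequences, of 1248 bases each, were 99.68% identical. Of the 50-base words in the Tgtp1 transcript 91.4% also occur in another gene (Tgtp2 or Gm12185), and of those in Tgtp2 90.6% occur elsewhere. The study's PCR primers for Tgtp1, ggctggagcattagccacc and tgttctgcaaacaaatggggaa, each match both coding sequences, so that assay too would read both genes. Summed over both genes, FPKM was 15.2 in Sham, 63.6 in WI and 10.7 in IR, so WI was 4.19 times Sham and IR was lower than WI by 5.93 times. The order of the libraries thus does not rest on how reads were divided between them.

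Gm4841 was the least abundant member and had the largest ratios. Its FPKM was 0.709 in Sham (0.237 to 1.18), 4.68 in WI (2.35 to 7.01) and 0.413 in IR (0.114 to 0.713), and WI stood apart from both others. WI was 6.60 times Sham (2.87 to 15.2), and IR was lower than WI by 11.3 times (4.70 to 27.3). On the log2(FPKM + 1) scale, which understates changes of low genes, the differences were 1.73 and -2.01. It passed the filter on low values through the WI library alone. Of its 50-base words 9.53% occur in other genes, against 2.93% for Iigp1.

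Among the regulators, Igtp had its highest level in WI and 1.17 times the Sham level in IR. Its FPKM was 21.5 in Sham (11.5 to 31.4), 71.2 in WI (35.9 to 106) and 25.1 in IR (13.5 to 36.8), with the bounds of Sham and WI apart. WI was 3.32 times Sham (1.68 to 6.54), and IR was lower than WI by 2.83 times (1.44 to 5.58). Irgm2 is its neighbour on the chromosome.

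For Irgm2, FPKM was 13.7 in Sham (7.36 to 20.1), 35.7 in WI (18.4 to 53.0) and 11.4 in IR (6.13 to 16.7). Here the bounds of WI and IR were apart and those of Sham and WI overlapped. WI was 2.60 times Sham (1.33 to 5.09), and IR was lower than WI by 3.13 times (1.60 to 6.11). Igtp and Irgm2 were 69.16% identical in coding sequence, and 10.1% and 6.86% of their 50-base words occur in another gene.

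Irgm1 was the member that was not lower in IR than in WI as deposited. Its FPKM was 18.8 in Sham (10.1 to 27.5), 41.7 in WI (21.9 to 61.5) and 43.4 in IR (22.7 to 64.0), with overlapping bounds in all comparisons. WI was 2.21 times Sham (1.14 to 4.30), the smallest ratio of the members. IR was 1.04 times WI (0.531 to 2.04), a difference of 0.06 on the log2(FPKM + 1) scale that turned to -0.48 when each library was rescaled to the same FPKM sum (TPM). No 50-base word of Irgm1 occurs exactly in another annotated transcript; reads placed with mismatches or on copies outside the annotation were not looked at. Of the 5 members with a promoter window, Irgm1 is also the one whose window holds no GAS match, an observation on a single gene.

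The part of the FPKM difference between WI and Sham that was absent in IR was also computed. It was 110% for Tgtp1 and Irgm2, 107% for Gm4841, 106% for Tgtp2, 92.6% for Igtp and 83.7% for Iigp1, where a value over 100% means a level below Sham. For Irgm1 it was -7.28%. As deposited, Tgtp1, Tgtp2, Irgm2 and Gm4841 were thus lowest in IR, and Igtp, Irgm1 and Iigp1 were lowest in Sham. After rescaling to the same FPKM sum, Igtp and Iigp1 were also lower in IR than in Sham, by log2 differences of -0.35 and -0.12.

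The order of the levels changed between libraries. In Sham it ran Iigp1, Igtp, Irgm1, Irgm2, Tgtp1, Tgtp2 and Gm4841. The bounds of Iigp1 and Igtp were apart, as were those of Tgtp2 and Gm4841, and the neighbours between Igtp and Tgtp2 overlapped. In WI, Tgtp1 moved from place 5 to place 3 and only Iigp1 stood apart from its neighbour, Igtp. In IR, Tgtp1 was back in place 5, Irgm1 had moved to place 2 behind Iigp1, and no neighbours had bounds apart. The highest member exceeded the lowest by 134 times in Sham, 68.0 in WI and 319 in IR.

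Set against all genes, the comparison of WI with Sham covers 90 min of ischemia against 90 min after laparotomy, with 1 library of each. Treatment and the mice behind each library cannot be told apart in it. A gene was counted when FPKM + 1 differed at least 2-fold. By this rule 7 of 7 members were higher in WI, where 0.751% of the genes tested were (81 genes), and 0 of 7 were lower, where 1.1% were. The bounds of WI lay above those of Sham for 3 of 7 (Tgtp1, Igtp and Gm4841), and for 0.195% of the genes tested. Because the members were chosen from this contrast, these counts describe the choice. The median of the members was 1.68 on the log2(FPKM + 1) scale and that of all genes tested 0.02. In the ranking by this difference the members stood at places 7 (Tgtp1), 12 (Gm4841), 13 (Iigp1), 16 (Igtp), 28 (Tgtp2), 37 (Irgm2) and 65 (Irgm1) of 10792. Kupffer cell markers were lower in WI, with 3 of 9 at least 2-fold down, while NK and T cell markers had 0 of 6 tested in either direction; the part of cell composition in the member values was not tested.

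The comparison of IR with WI covers 120 min of reperfusion after the same ischemia. Here 6 of 7 members were lower in IR, where 1.43% of the genes tested were, and 0 of 7 were higher, where 5.78% were. The bounds of IR lay below those of WI for 3 of 7 (Tgtp1, Irgm2 and Gm4841), and for 0.398% of the genes tested. The median of the members was -1.56 and that of all genes 0.03. The WI library enters both this comparison and that with Sham, so a high value in WI alone gives a gene opposite signs in the 2. Of the 81 genes higher in WI, 26 (0.241% of the genes tested) were also lower in IR, and 6 of these were members.

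Against Sham, IR had 1 of 7 members at least 2-fold higher, Irgm1, with a difference of 1.16, where 5.35% of the genes tested were higher. None of the 7 was lower, where 2.15% of genes were, and the bounds of IR lay below those of Sham for 0 of 7 members and for 1.12% of the genes tested. Irgm1 was at 0.61 after rescaling to the same FPKM sum, short of 2-fold. The other members ranged from -0.61 (Tgtp1) to 0.46 (Iigp1). The same rescaling turned Igtp from 0.22 to -0.35 and Iigp1 from 0.46 to -0.12, and moved Tgtp1 to -1.18, past 2-fold. Rescaling by the median ratio of genes did not, and left Irgm1 at 1.08. The median of the members was -0.18 and that of all genes 0.05. NK and T cell, Kupffer cell and neutrophil marker sums differed between IR and both other libraries, as given above, and their part in these values was not tested.

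**Figure D3:**
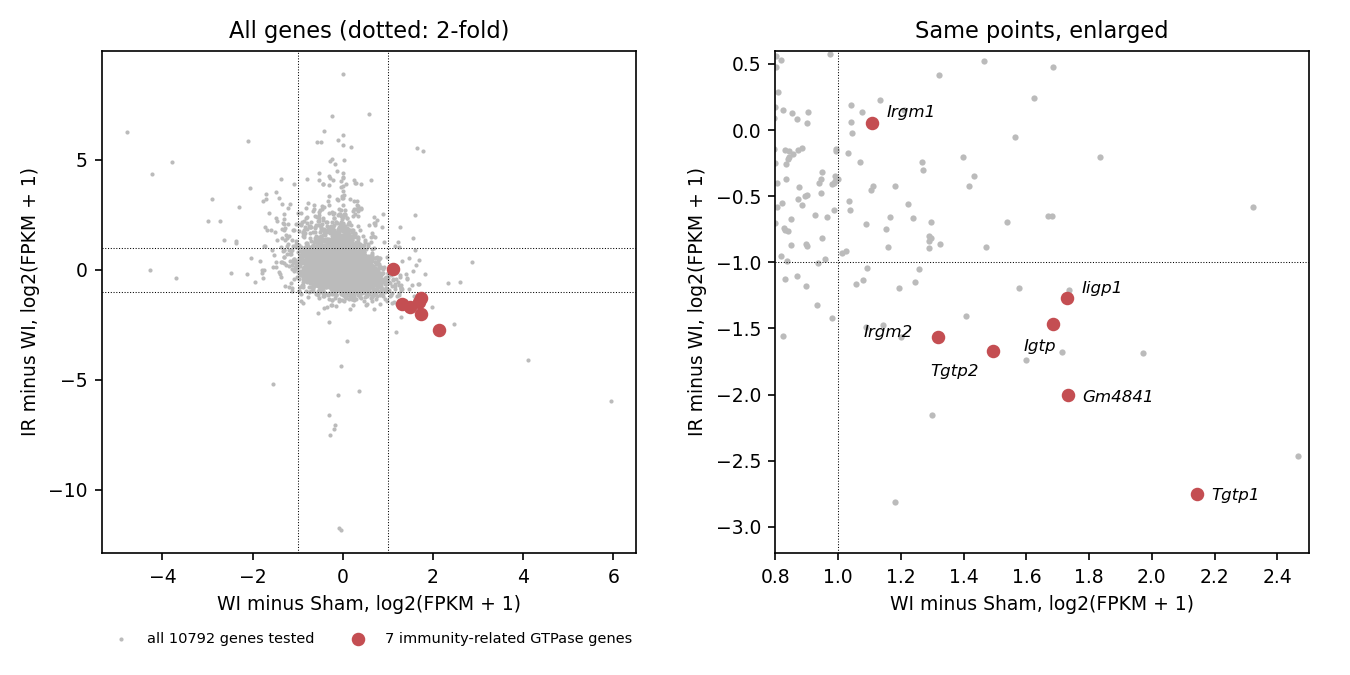
Difference of WI minus Sham (x axis) and of IR minus WI (y axis) in log2(FPKM + 1) for 10792 genes tested (grey) and the 7 members (red), with the area of the members enlarged at right; dotted lines mark 2-fold. Of the members, Tgtp1 lies farthest out at 2.14 and -2.75, and Irgm1 lies at 1.11 and 0.06, above the line that the other 6 are below. The WI library enters both axes.

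Other IRG genes were looked at next, from a list of 10 symbols of which 9 were in the tables and 6 passed the filter. Of these 6, 1 was higher in WI than in Sham and 0 were lower, and 0 were higher and 3 lower in IR than in WI. The gene higher in WI was Gm12250 (Irgb10, an effector), with FPKM of 2.24 in Sham, 5.90 in WI and 2.35 in IR. Gm4951 (Ifgga2) had 24.1, 39.2 and 18.4, and a difference between WI and Sham of 0.68. The remaining genes did not share the high value in WI. Those of 9930111J21Rik1, of the Tgtp1 neighbourhood, were 2.13, 1.38 and 0.50, and those of Gm5431 (Irgb9b8) 1.02, 0.57 and 0.36. Gm12185 (Irgb2b1), which has the same promoter arrangement as the 4 members, was listed at 0.17, 0.17 and 0.06 and did not pass the filter. The testis gene Irgc1 was at 0 in all 3 libraries.

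Ifi47 (Irgd), an IRG gene named here after its values were seen, had FPKM of 9.53 in Sham (3.10 to 16.0), 24.4 in WI (7.25 to 41.5) and 20.4 in IR (9.04 to 31.9). Like Irgm1, it was higher in WI and remained so in IR, with 26.4% of the difference absent. Its bounds overlapped in all comparisons. The tables give it the same locus as Tgtp2, although 3.38% of its 50-base words occur in another gene, which was Olfr56. Its promoter window held neither motif.

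The guanylate-binding proteins (GBPs) are larger GTPases that interferon gamma induces with the IRGs and that act on the same vacuoles. Of 11 tested, 3 were higher in WI than in Sham and 0 were lower, and 0 were higher and 3 lower in IR than in WI. The medians were 0.58 and -0.74. Between WI and Sham, Gbp10 differed most, with FPKM of 3.68 in Sham, 17.4 in WI and 4.71 in IR. Gbp6 had 4.81, 13.2 and 6.96 and Gbp7 had 3.93, 10.8 and 4.69, both highest in WI as were 6 of the members. Gbp11 had 1.89, 4.38 and 4.60, an order closer to that of Irgm1, and was short of 2-fold on the FPKM + 1 scale. Gbp1, named after its values were seen, had 5.53, 3.90 and 0.47, and differed most between IR and WI, by -1.74 against -1.69 for Gbp10.

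Of the signaling genes upstream, Irf1, the ISRE-binding factor, had FPKM of 8.06 in Sham, 17.1 in WI and 15.3 in IR. Its difference between WI and Sham of 0.99 stopped just short of 2-fold, and like Irgm1 it remained high in IR. Ifng, the gene of the cytokine itself, was at 0.04, 0.10 and 0.14 FPKM and below the filter in all libraries. The receptor chains were not highest in WI, with 14.5, 9.73 and 8.09 for Ifngr1 and 9.81, 8.36 and 12.2 for Ifngr2.

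The kinases had nearly equal levels in Sham and WI and their highest in IR, within 2-fold. Jak1 had FPKM of 20.7, 20.2 and 38.8, and Jak2 3.56, 3.75 and 6.83. The largest differences of this list between IR and WI were in genes that restrain the pathway, Socs1, which blocks the kinases, with 0.42, 0.40 and 4.49, and the phosphatase gene Ptpn2, with 6.78, 5.25 and 36.2. Those 2 were the genes of the list higher in IR. The transcription regulators Irf8, Nlrc5 and Ciita were within 2-fold in FPKM + 1 throughout. Irf8 had 5.24, 3.89 and 3.87, Nlrc5, which drives MHC class I genes, 2.48, 3.12 and 2.13, and Ciita, which drives MHC class II genes, 0.44, 0.49 and 0.07. Ciita was below the filter in all libraries, where the FPKM + 1 scale understates changes. Its FPKM in IR was 0.146 times that in WI.

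Of the other target genes of interferon gamma, 20 were tested. Among them 1 was higher in WI and 0 were lower, with a median of 0.25, and 1 was higher and 4 were lower in IR than in WI. The gene higher in WI was the chemokine gene Cxcl10, at 3.76, 10.4 and 22.6 FPKM, which was higher still in IR. The immunoproteasome genes Psmb9 (28.7, 51.8 and 30.3) and Psmb10 (29.3, 57.0 and 43.0) had their highest level in WI. Cd74, the MHC class II invariant chain, had 181, 135 and 63.4, and was thus lowest in IR.

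Genes of the type I interferon response had 0 of 25 tested at least 2-fold apart between Sham and WI in FPKM + 1, and a median of -0.01. In IR 2 were higher than in WI, where 5.78% of the genes tested were, and 5 higher than in Sham, where 5.35% were. Isg15, a ubiquitin-like modifier, had FPKM of 13.8, 24.9 and 37.0. Rsad2 (viperin, an antiviral enzyme) had 3.69, 1.45 and 9.46, Oas3 2.15, 0.79 and 2.18, and Ifit2 4.40, 2.23 and 2.45, all lowest in WI. In FPKM itself, WI was 0.370 times Sham for Oas3 and 0.393 times for Rsad2, which the FPKM + 1 scale understates. The genes Ifnb1 and Ifna4 of the cytokines were listed at 0 in the 3 libraries. Of the upstream cytokines that induce interferon gamma, Il15 (2.64, 2.65 and 2.02) and Il18 (13.8, 16.9 and 14.9) passed the filter and did not reach 2-fold. The autophagy conjugation genes, whose products direct IRGs to vacuoles, were listed with the cargo receptor gene Sqstm1. Of these 11, 0 were apart between WI and Sham and 2 were higher in IR than in WI. They were Sqstm1, at 110, 122 and 535, and Map1lc3a, at 27.1, 20.9 and 43.7. Of 10 housekeeping genes 0 differed between WI and Sham and 1 was higher in IR than in WI, and Gapdh had 850, 1231 and 1696.

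**Figure D4:**
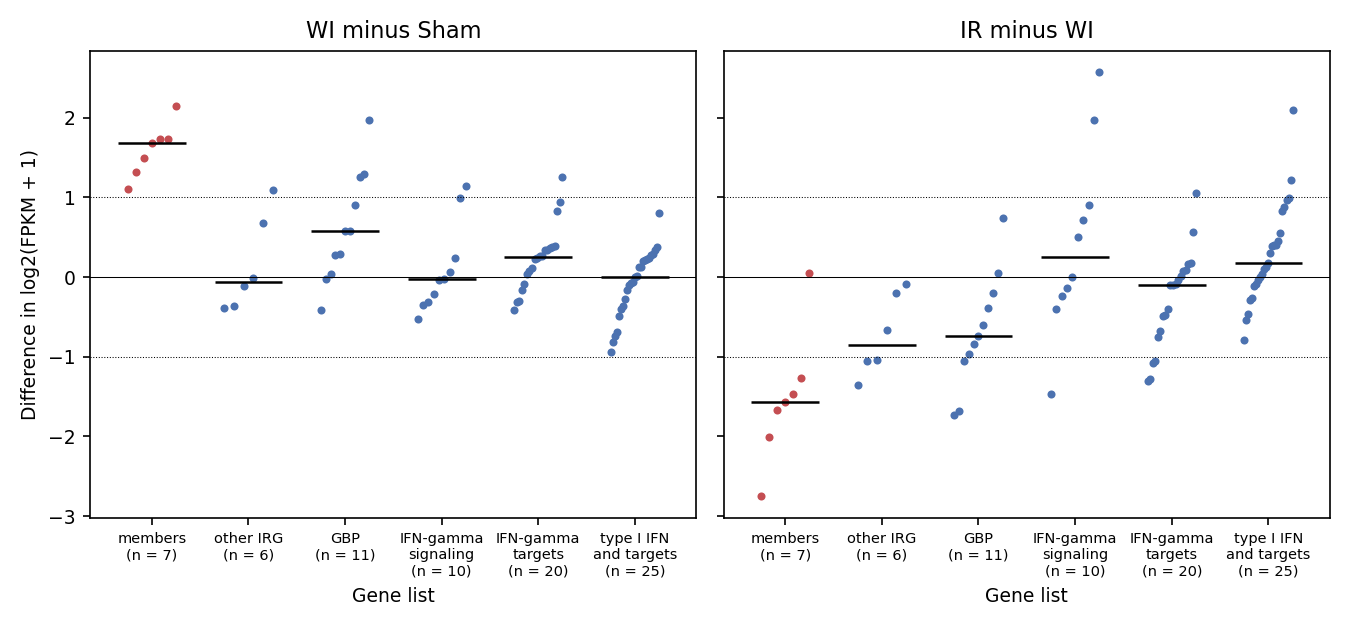
Differences in log2(FPKM + 1) for WI minus Sham (left) and IR minus WI (right), with 1 point for each gene tested of the members (red) and of 5 lists of related genes (blue), and black lines at the medians; dotted lines mark 2-fold. The members have medians of 1.68 and -1.56, the GBPs 0.58 and -0.74, and the type I interferon genes lie between the 2-fold lines at left.

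By pattern, the genes nearest to the members were ranked by the distance of their 2 differences (WI minus Sham, IR minus WI) from the medians of the members, over the 3 libraries. Among the 10 nearest outside the members were Gvin1, 4930470H14Rik, Gbp10, Elovl6, Mid1ip1, Fasn, Prtn3, Anks4b and Idi1, at distances from 0.116 to 0.606 on the log2(FPKM + 1) scale. Gvin1, a very large interferon-inducible GTPase of another family, had FPKM of 1.80, 8.17 and 1.87. Fasn (fatty acid synthase) had 24.3, 74.3 and 31.9, and Elovl6, which elongates fatty acids, 12.7, 35.3 and 12.7. Idi1, of cholesterol synthesis, had 99.3, 237 and 106. The genes nearest in pattern thus include genes of interferon response and of lipid synthesis, and with 3 libraries a like pattern says no more than that.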

How the data were processed

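The 3 deposited tables hold FPKM per gene with 95% bounds and a status. The authors mapped read pairs to mm10 with TopHat2 2.0.9 and computed FPKM with Cuffdiff (Cufflinks 2.0.2) at default parameters. By default Cuffdiff divides a read that maps to several places evenly among them, which bears on Tgtp1 and Tgtp2. Counts are not in the tables, and depth cannot be read from FPKM. FPKM per library is scaled to mapped fragments, and the FPKM sums over genes were 475754 in Sham, 487912 in WI and 712423 in IR, so changes were also computed after rescaling to a common sum.

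Differences were taken on the log2(FPKM + 1) scale over genes that reached FPKM 1 in any library, and 2-fold was the threshold. There was 1 library per group, so no test was run. Intervals of a ratio combine the relative half-widths of the bounds of both libraries as a root sum of squares. Members and lists were chosen with earlier results of these data known. Named genes were the 7 members, up to 4 genes a list with the largest difference between WI and Sham, the genes of the interferon gamma signaling list, and the 10 nearest in pattern; other genes named were chosen after their values were seen, and some genes that this rule names are not reported here. Alternatives were pseudocounts of 0.1 and 0.01, no filter or a minimum of 5, thresholds of 1.5 and 4, 2 rescalings, the filter on status, and Tgtp1 and Tgtp2 summed. Promoters came from RefSeq (GRCm38.p6), and transcripts from the NCBIM37 annotation, used for sequence only. Python 3.11.15, pandas 2.3.3, numpy 2.4.6, Biopython 1.88 and matplotlib 3.10.9 were used, and the calling code was tested on simulated data.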

Additional observations from a re-analysis of the deposited data

How the results depend on the processing

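Of the recomputed member counts and medians, 92 stayed within the tolerance (1.5 times for a count, and for a median the median SD of the members' log2 ratios from the Cuffdiff bounds) and 7 moved, and no called value changed sign. That tolerance is wide for the median of IR against Sham, which went from -0.18 to -0.66 after rescaling to a common sum and to 0.02 with a minimum of 5, so its sign is not settled. A threshold of 4-fold left 1 member higher in WI than in Sham, where 0.0649% of the genes tested were. It left 2 lower in IR than in WI, where 0.176% were, and 0 higher in IR than in Sham, where 1.31% were. A threshold of 1.5-fold gave 1 member lower in IR than in Sham, where 9.49% of genes were. Rescaling to a common FPKM sum (TPM) gave a median of -2.12 for IR against WI. In IR against Sham it gave 0 members higher, where 2.72% of genes were, and 1 lower, where 13.4% were. That rescaling moved the median of all genes to -0.45 for IR against WI and -0.46 for IR against Sham. It also turned the split of calls from 624 higher and 154 lower to 390 and 1200 for IR against WI. For IR against Sham the split went from 577 and 232 to 324 and 1598. The direction of small differences with IR thus depends on whether libraries are rescaled to the FPKM sum, and the cause was not tested. The other rescaling, by the median ratio of genes, left the members near their deposited values. By it Irgm1 was at 0.01 for IR against WI and 1.08 for IR against Sham. Against Sham, Igtp was then at 0.14, Iigp1 at 0.38 and Tgtp1 at -0.68 in IR. The counts of members for WI against Sham did not depend on the rescaling. No paired analysis was possible because each group has 1 library, and for the same reason no replicate could be left out. The tables analysed hold no depth, and the bounds describe a library, not mice. The filter on the 2 libraries compared was added after seeing the data.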

Other observations

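Outside the members, 30 genes tested held both a GAS and an ISRE core match in their promoter window. Of these 2 were at least 2-fold higher in WI than in Sham, Gbp7 and Gm12250, and 1 was lower, Sult3a1, at 75.8, 31.2 and 36.2 FPKM in Sham, WI and IR. In IR against WI, 3 of the 30 were lower (10%) and 2 were higher (6.67%). Among 230 genes with an ISRE core match and no GAS match, 1 was higher in WI than in Sham (0.435%). Among 555 with a GAS match and no ISRE core match, 6 were (1.08%). Of 7269 genes with neither, 41 were higher in WI than in Sham, 0.564% of them. In IR against WI, 1.2% of those with neither were lower and 5.41% were higher.

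The 26 genes that were 2-fold higher in WI and 2-fold lower in IR included, beside the 6 members, the GTPase genes Gbp7, Gbp10, Gvin1 and Gm12250, and the genes Fasn, Elovl6, Mid1ip1 and Idi1 of lipid and sterol synthesis or its control.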
